A study of Homo sapiens with 6 samples.

Results

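The 42 genes described here encode the cytoplasmic actins ACTB and ACTG1 and 40 other proteins, which bind actin, act beside it or couple actin to transcription. They were matched by symbol in a table of 24960 genes and all 42 were found. ACTB and ACTG1 were chosen because their RNA was higher after hyperoside in these same libraries, so their difference is a description and is given without a test. The other 40, called partners below, were listed by function, and the question was whether they followed the actins.

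RNA came from K562 cells, a chronic myeloid leukemia line that carries the BCR::ABL fusion and grows in suspension. The control group had 3 libraries, and the hyperoside group had 3 libraries from cells given 2 mM hyperoside, a flavonol glycoside of quercetin. Both groups are the same cell line, so they show one line and not patients. The sources used here do not give how long the cells were treated or say whether the replicates were separate cultures, and p-values then measure only the spread between these samples.

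Actin exists as a monomer and as a polar filament. The Arp2/3 complex starts branches on filaments, thymosins and profilin hold the monomers, capping proteins block filament ends, cofilin with its partner WDR1 takes filaments apart, and tropomyosins, myosin II and crosslinkers turn filaments into stable or contractile arrays. The monomer pool also feeds back on genes: MRTFA and MRTFB bind monomeric actin, and when it becomes scarce they enter the nucleus and act with SRF, which binds the CArG box in the promoters of many actin cytoskeleton genes. In hematopoietic cells these proteins serve shape, division and movement.

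The gene totals were 35613283 to 36754725 counts per library, the TMM scaling factors were 0.957 to 1.03, and 15095 genes passed the filter on low counts. All 42 members passed it. Levels between libraries are given as TMM-scaled counts relative to library size (CPM), and levels between genes as FPKM, which is also per gene length. The 13 erythroid K562 markers all had counts and summed to 5903 to 7409 CPM in control and 5089 to 6086 CPM in hyperoside libraries. The 6 fibroblast markers summed to 6.49 to 8.81 CPM and 6.56 to 8.83 CPM, 3 endothelial markers to 9.58 to 10.8 CPM and 27.4 to 31.2 CPM, and 6 monocyte and macrophage markers to 195 to 203 CPM and 246 to 279 CPM with MARCO at 0. The 3 epithelial markers in the table summed to 279 to 311 CPM and 358 to 384 CPM, and the 6 lymphoid markers to 32.4 to 39.0 CPM and 41.2 to 46.1 CPM. The part of these markers in the results below was not tested.

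ACTB lies on the minus strand at chr7:5527147-5563784 and ACTG1 on the minus strand at chr17:81509971-81523847 (GRCh38, GENCODE 29). Their coding sequences have 1128 bases each and are 91.2% identical. The first 60 coding bases are shown because counts of these genes depend on telling such sequences apart, and the 10 capitals mark the bases that differ.
ACTB: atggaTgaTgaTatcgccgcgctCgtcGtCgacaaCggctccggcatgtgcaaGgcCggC
ACTG1: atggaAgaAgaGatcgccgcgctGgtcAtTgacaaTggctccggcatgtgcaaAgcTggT
The longest stretch without a difference was 59 bases. GENCODE 29 names 10 pseudogenes after ACTB and 20 after ACTG1, none of them in the count table, so how reads shared with those copies were assigned is uncertain.

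CArG boxes were found in promoter windows of the 6 members below, SRF holding 2, from 250 bases before to 50 bases after a start in RefSeq (GRCh38.p14). They are printed because the box is the site through which SRF and the MRTFs act, and the capitals mark each box on the strand of the gene.
ACTG1: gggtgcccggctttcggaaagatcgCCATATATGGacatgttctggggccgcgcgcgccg
TPM4: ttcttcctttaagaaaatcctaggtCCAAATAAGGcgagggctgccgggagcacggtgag
FLNA: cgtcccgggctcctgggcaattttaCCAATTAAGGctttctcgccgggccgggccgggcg
SRF: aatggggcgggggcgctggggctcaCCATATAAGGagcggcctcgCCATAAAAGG
ACTN1: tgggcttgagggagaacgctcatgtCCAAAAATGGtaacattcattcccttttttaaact
CNN2: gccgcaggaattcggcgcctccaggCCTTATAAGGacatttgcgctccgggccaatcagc
The stretches lie at chr17:81512859-81512918 (minus strand) for ACTG1, chr19:16067340-16067399 (plus) for TPM4, chrX:154374694-154374753 (minus) for FLNA, chr6:43171214-43171268 (plus) for SRF, chr14:68977703-68977762 (minus) for ACTN1 and chr19:1026494-1026553 (plus) for CNN2.

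ACTB and ACTG1, the cytoplasmic actins, were higher in every hyperoside library than in every control library. ACTB had 1622, 1547 and 1496 CPM in control replicates 1 to 3, and 2291, 2520 and 2406 CPM in hyperoside replicates 1 to 3. ACTG1 had 898, 912 and 905 CPM in control and 1589, 1619 and 1746 CPM in hyperoside. The means were 1555 ± 63.5 and 2406 ± 114 CPM for ACTB and 905 ± 7.19 and 1652 ± 83.3 CPM for ACTG1 (SD, n = 3 in each group). The hyperoside mean was 155% of control for ACTB and 183% for ACTG1, which corresponds to log2 differences of 0.63 (SE 0.06) and 0.87 (SE 0.06). Neither reached a fold change of 2.

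These were among the most abundant transcripts of the cells, with ACTB ranking 37 and ACTG1 ranking 77 of 15095 by mean CPM. Together they took 0.242% ± 0.00120 of all gene counts in control and 0.412% ± 0.0129 in hyperoside (SD, n = 3). Of all tested genes, 15.2% had a higher log2 difference than ACTB. In bulk RNA, a change in each cell and a change in a subset of the cells cannot be told apart.

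Most partners were not called, and those called went in both directions. By edgeR's quasi-likelihood test at an adjusted p under 0.05, 9 of 40 partners were higher after hyperoside (22.5%), against 22.1% of all tested genes. A further 6 of 40 were lower (15%), against 23.2% of all tested genes, and 25 were not called. In either direction 37.5% of partners were called, against 45.3% of all genes. The share called higher was near that of all genes and is no result about the partners.

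The differences among partners were small. Their median log2 difference was 0.02, against 0.00 over all tested genes, and the interquartile range of the partners was -0.10 to 0.16, against -0.31 to 0.36 over all genes. Estimates were above 0 in 23 partners and below 0 in 17. No partner had an estimate as high as that of ACTB, and in 39 of 40 the 95% confidence interval ended below ACTB's estimate, the exception being ARPC4. ACTB was picked for its rise, so this is a description.

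None of the 42 members met the call rule that also asks for a fold change above 2, against 6.43% of all tested genes higher and 3.76% lower (10.2% in either direction). DESeq2 also gave 0 partners by this rule, and 16 of 40 partners had an unadjusted p under 0.05 in edgeR, against 52.2% of all genes. Members are abundant, 31 of 42 having a mean of at least 100 CPM, and large differences were rarer at that level: 2.43% of the 2137 genes with such a mean met the fold rule. This level was chosen after the data were seen. Among the 29 partners at it, 8 were higher (27.6%), against 20% of those genes, and 5 were lower (17.2%), against 34.4%.

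Control and hyperoside libraries did not overlap for 19 of 40 partners (47.5%), against 54.4% of all tested genes. Of the 40 partners, 12 were higher without overlap (30%), against 27.1% of all genes, and 7 were lower (17.5%), against 27.3%. Of the 25 partners that were not called, 22 had a 95% interval that stayed within 0.5 of 0 on the log2 scale, and the others were CFL2, MYL9 and PFN2, which are lowly expressed.

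**Figure D1:**
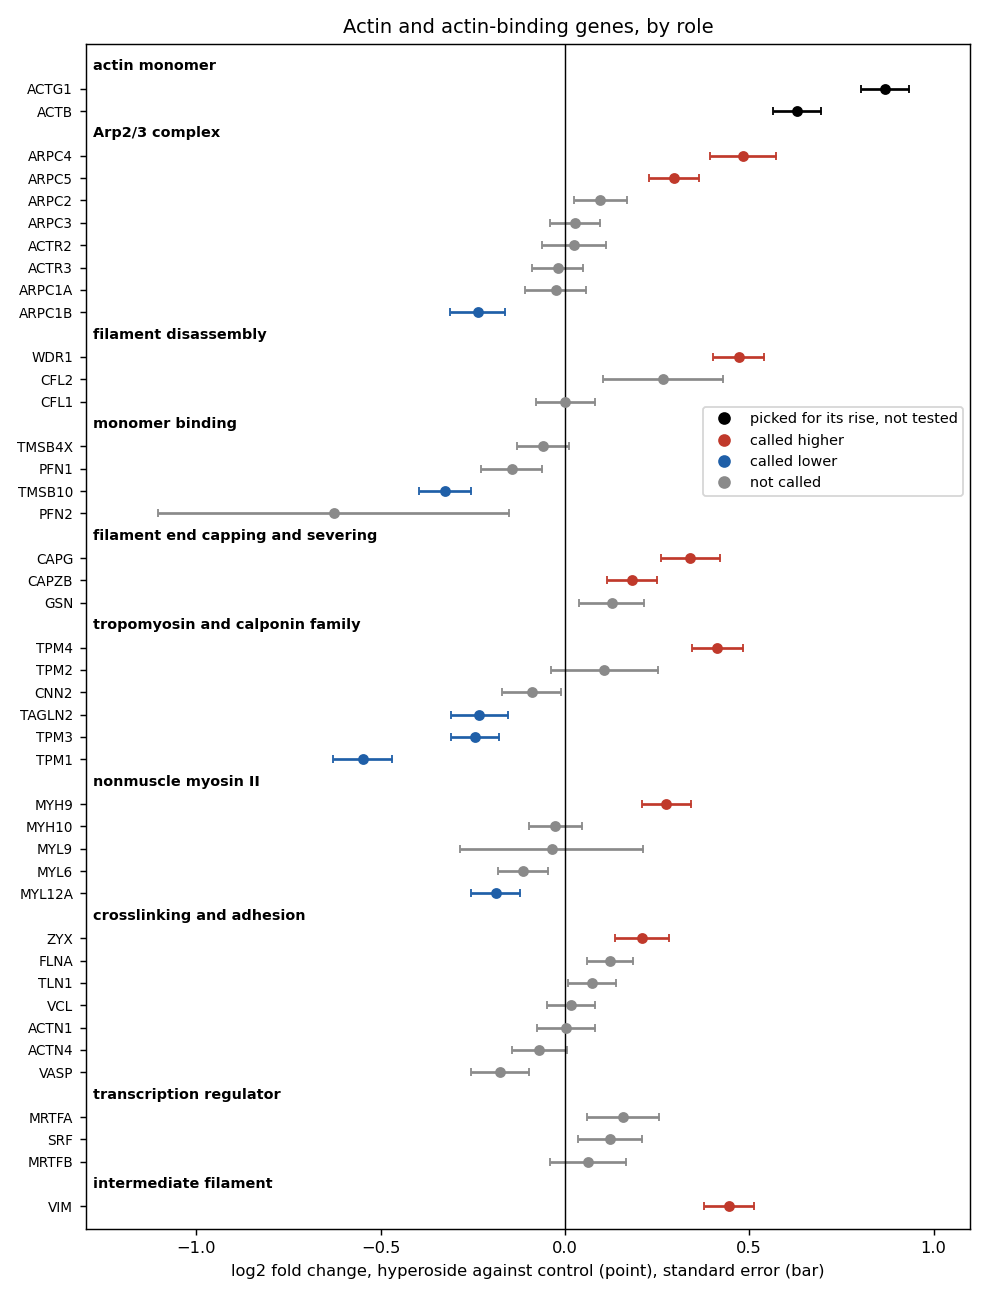
Log2 difference of hyperoside against control (x axis) for the 42 members, grouped by role (y axis), with points for edgeR estimates and bars for the standard error (n = 3 libraries per group). ACTB and ACTG1 at 0.63 and 0.87 lie to the right of every partner, and most partners lie close to 0.

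The Arp2/3 complex nucleates branched filaments and has subunits from 8 of the genes. Of these, 2 were higher, 1 was lower and 5 were not called, beside 22.1% higher and 23.2% lower over all tested genes. ARPC4, a core subunit at chr3:9792495-9807726, had 62.1, 52.1 and 52.7 CPM in control and 71.9, 81.5 and 79.8 CPM in hyperoside, with no overlap. Its log2 difference of 0.48 (SE 0.09, adjusted p = 2.5e-04 in edgeR) was the highest among the partners. ARPC4 shares 15% of its exon bases with the readthrough gene ARPC4-TTLL3, which had 0.699 and 1.05 CPM and was not called.

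ARPC5, the subunit that ties the ARPC1 arm to the complex, had 174, 187 and 184 CPM in control and 222, 222 and 224 CPM in hyperoside (log2 difference 0.30, SE 0.07, adjusted p = 0.00166 in edgeR). ARPC1B, a regulatory subunit known from blood cells, went the other way, from 242, 213 and 207 CPM to 182, 192 and 188 CPM (log2 difference -0.24, SE 0.07, adjusted p = 0.0148). The ARPC1B call was lost without hyperoside replicate 1 or without hyperoside replicate 3. ARPC1B and ARPC1A share 32.4% and 58.4% of their exon bases with another annotated gene on the same strand, so how shared reads were assigned is uncertain.

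The other 5 subunits were not called. ACTR2 and ACTR3, the actin-related proteins that form the start of a branch, had log2 differences of 0.02 (95% interval -0.16 to 0.21) and -0.02 (-0.16 to 0.12). ARPC2, ARPC3 and ARPC1A had 0.10, 0.03 and -0.03. Per length, ARPC3 was the most abundant subunit, at 249 FPKM in control and 263 FPKM in hyperoside, and ARPC5 the least, at 24.5 and 31.1 FPKM.

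Of the filament disassembly genes, WDR1 was higher and both cofilins were not called. WDR1, which works with cofilin to take filaments apart, lies at chr4:10074339-10116949 and had 189, 181 and 173 CPM in control and 244, 263 and 246 CPM in hyperoside. Every hyperoside library was above every control library (log2 difference 0.47, SE 0.07, adjusted p = 3.0e-05 in edgeR). CFL1, the cofilin of nonmuscle cells, had 412 ± 45.9 CPM in control and 413 ± 24.7 CPM in hyperoside (SD, n = 3), with a log2 difference of 0.00 and a 95% interval of -0.17 to 0.17. CFL2, the muscle form, had 9.29 and 11.2 CPM (log2 difference 0.27, 95% interval -0.07 to 0.61).

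The monomer-binding genes had no member called higher, and all 4 estimates were below 0. TMSB10, a thymosin that holds monomers, lies at chr2:84905625-84906675 and had 687, 640 and 602 CPM in control and 511, 489 and 541 CPM in hyperoside. The groups did not overlap (log2 difference -0.32, SE 0.07, adjusted p = 0.00111 in edgeR). TMSB4X, its close relative, had 976, 931 and 892 CPM in control and 902, 821 and 962 CPM in hyperoside, and the groups overlapped (log2 difference -0.06, 95% interval -0.21 to 0.09).

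The coding sequences of the thymosins have 135 bases each and are 72.6% identical, with capitals at the 37 bases that differ. They are shown because one was called and the other was not.
TMSB4X: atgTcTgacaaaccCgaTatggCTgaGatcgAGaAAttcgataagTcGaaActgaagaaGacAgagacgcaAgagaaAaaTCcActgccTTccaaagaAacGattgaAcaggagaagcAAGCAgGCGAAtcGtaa
TMSB10: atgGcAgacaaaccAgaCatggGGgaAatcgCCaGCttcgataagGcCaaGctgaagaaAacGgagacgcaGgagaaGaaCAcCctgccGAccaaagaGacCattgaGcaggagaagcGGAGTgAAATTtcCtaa
The longest stretch they share is 10 bases. PFN1, the profilin that loads monomers for growing ends, had 375 ± 40.5 and 339 ± 28.3 CPM (SD, n = 3), with a log2 difference of -0.14 (95% interval -0.32 to 0.03). PFN2, a profilin best known from neurons, was near 1 CPM in both groups, and its interval of -1.63 to 0.37 leaves its direction unresolved at this depth.

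Of the 3 capping and severing genes, 2 were called higher, beside 22.1% of all tested genes, and the call of CAPZB depended on the setting. CAPG, which caps fast-growing ends, had 114, 122 and 110 CPM in control and 145, 132 and 160 CPM in hyperoside (log2 difference 0.34, SE 0.08, adjusted p = 0.00230 in edgeR). CAPZB, the beta subunit of capping protein, had 195, 184 and 183 CPM and 206, 212 and 220 CPM (log2 difference 0.18, SE 0.07, adjusted p = 0.0374). CAPZB was called in 8 of 14 alternative settings. It lost its call with a replicate block and without any single library other than control replicate 1, with adjusted p up to 0.135. GSN, gelsolin, which severs and caps, had 124 ± 9.57 and 135 ± 15.8 CPM (SD, n = 3) and was not called (log2 difference 0.13, adjusted p = 0.252); without control replicate 1 its adjusted p was 0.0386.

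Tropomyosins, which coat filaments and decide what else may bind, moved apart. TPM4, at chr19:16067021-16103005, had 217, 242 and 231 CPM in control and 312, 294 and 313 CPM in hyperoside (log2 difference 0.41, SE 0.07, adjusted p = 1.06e-04 in edgeR). TPM1, at chr15:63042632-63071915, had 63.2, 60.4 and 63.4 CPM in control and 43.4, 42.3 and 42.1 CPM in hyperoside (log2 difference -0.55, SE 0.08, adjusted p = 2.45e-05), the lowest estimate of any called partner. TPM3, at chr1:154155304-154194648, had 608, 561 and 570 CPM and 484, 499 and 487 CPM (log2 difference -0.24, SE 0.07, adjusted p = 0.00548). TPM4 was thus higher, TPM1 and TPM3 lower, and none of the groups overlapped.

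TPM2, the remaining tropomyosin, was near 10 CPM and not called (log2 difference 0.11, 95% interval -0.20 to 0.41). An antisense gene, TPM1-AS, overlaps TPM1 and had 0.216 and 0.137 CPM; as strand use in counting is not given, reads of such pairs cannot be told apart. GENCODE 29 names 8 pseudogenes after TPM3, and how their reads were assigned is uncertain.

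TAGLN2, transgelin 2, and CNN2, calponin 2, belong to a family that steadies filaments. TAGLN2 had 592, 509 and 480 CPM in control and 432, 457 and 457 CPM in hyperoside (log2 difference -0.23, SE 0.08, adjusted p = 0.0202 in edgeR). Its call was lost without control replicate 1, without hyperoside replicate 1 and in both fits on FPKM, with adjusted p up to 0.103. CNN2 had 223 ± 24.9 and 209 ± 7.84 CPM (SD, n = 3) and was not called (log2 difference -0.09, 95% interval -0.26 to 0.08).

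Nonmuscle myosin II is the motor that pulls on filaments and closes the cleavage furrow. MYH9, its main heavy chain, had 271, 272 and 276 CPM in control and 330, 342 and 318 CPM in hyperoside (log2 difference 0.27, SE 0.07, adjusted p = 0.00245 in edgeR). MYH10, the other heavy chain, had 149 ± 1.81 and 146 ± 9.52 CPM (SD, n = 3) and a log2 difference of -0.03 (95% interval -0.18 to 0.13). None of the 3 light chains was called higher.

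MYL12A, a regulatory light chain, had 308, 294 and 288 CPM in control and 256, 256 and 269 CPM in hyperoside (log2 difference -0.19, SE 0.07, adjusted p = 0.0291 in edgeR). It was called in 7 of 14 alternative settings, and lost its call without control replicate 2, without any 1 of the hyperoside replicates, with a replicate block, and with library totals or upper quartile scaling. Its near-identical relative MYL12B, which was no member and is named for that reason, was also lower, at 300 ± 26.8 and 230 ± 9.40 CPM (SD, n = 3, log2 difference -0.39, adjusted p = 4.5e-04). MYL6, the essential light chain, had 457 and 422 CPM (log2 difference -0.11, 95% interval -0.26 to 0.03), and MYL9, the smooth muscle light chain, was near 3 CPM in both groups.

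Crosslinking and adhesion proteins tie filaments to each other and to the membrane, and most of their genes were not called. Over all tested genes 45.3% were called in either direction. ZYX, zyxin, a sensor of tension at adhesions, was the 1 of 7 called, with 111, 105 and 102 CPM in control and 122, 118 and 126 CPM in hyperoside (log2 difference 0.21, SE 0.07, adjusted p = 0.0256 in edgeR). ZYX kept its call in 9 of 14 settings and lost it with a replicate block and without control replicate 2, control replicate 3, hyperoside replicate 1 or hyperoside replicate 3.

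FLNA, filamin A, which links filaments into networks, had 1135, 1145 and 1105 CPM in control and 1210, 1253 and 1220 CPM in hyperoside. The groups did not overlap but the adjusted p was 0.116 (log2 difference 0.12, SE 0.06), and 4 of 14 settings called it, with adjusted p down to 0.0150. VASP, which speeds the growth of filament ends, did not overlap either, with 208, 174 and 178 CPM and 158, 165 and 174 CPM (log2 difference -0.18, adjusted p = 0.0793).

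VCL, vinculin, and ACTN1 and ACTN4, the nonmuscle alpha-actinins, had log2 differences of 0.02, 0.00 and -0.07, with 95% intervals of -0.12 to 0.15, -0.16 to 0.17 and -0.23 to 0.09. TLN1, talin, which joins integrins to actin, had 406 ± 10.3 and 427 ± 11.2 CPM (SD, n = 3, log2 difference 0.07, adjusted p = 0.381).

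VIM, vimentin, an intermediate filament protein and not an actin binder, was called higher. It lies at chr10:17228259-17237593 and had 1583, 1783 and 1673 CPM in control and 2271, 2173 and 2414 CPM in hyperoside (log2 difference 0.44, SE 0.07, adjusted p = 3.7e-05 in edgeR). VIM ranked 36 of 15095 genes by mean CPM, next to ACTB. The antisense gene VIM-AS1 overlaps it and had 16.5 and 15.4 CPM. Fibroblasts, endothelial cells and macrophages also express vimentin. Their marker sums are given above, the endothelial and the monocyte and macrophage sums being higher in the hyperoside libraries. The endothelial sum was almost all PECAM1, and the monocyte and macrophage sum almost all CD68 and LYZ. In CPM for control and hyperoside, PECAM1 had 9.74 and 28.0, KDR 0.338 and 0.903, and TEK 0.0379 and 0.00923. CD68 had 145 and 184, LYZ 52.8 and 76.3, CSF1R 0.255 and 0.904, FCGR3A 0.350 and 0.237, and CD14 0.0756 and 0.0737. The part of these cell types in the VIM result was not tested.

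**Figure D2:**
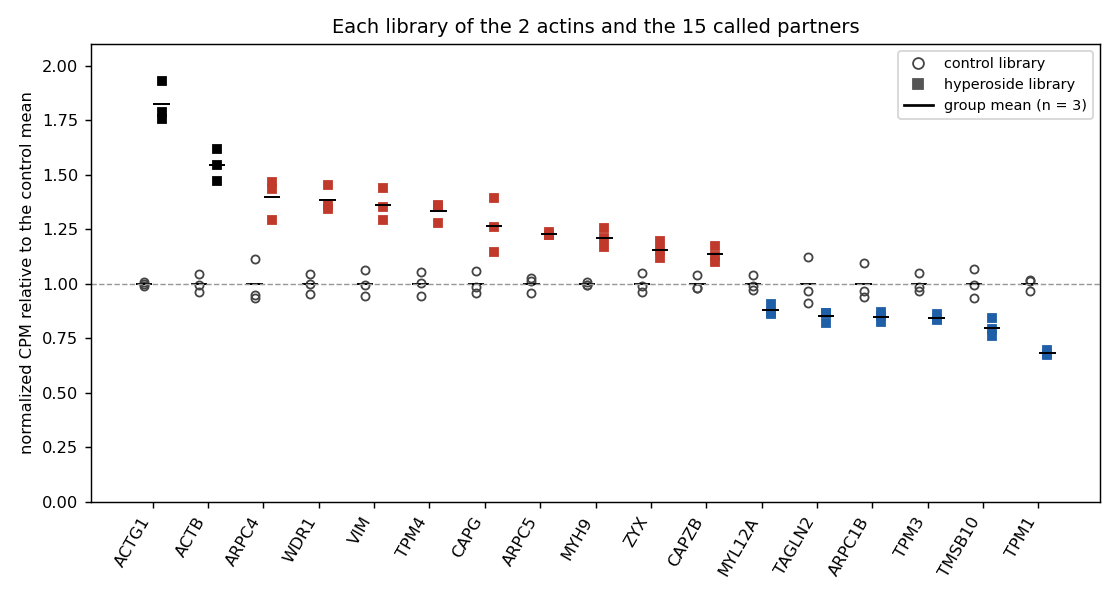
CPM of each library divided by the control mean of the gene (y axis, linear) for ACTG1, ACTB and the 15 called partners (x axis), with circles for control, squares for hyperoside and bars for group means (n = 3). The squares of TPM1 sit lowest, at a mean of 68.4% of control, and those of ACTG1 highest, at 183%.

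Of the 9 partners called higher, 7 were called in all 14 alternative settings: ARPC4, ARPC5, WDR1, CAPG, TPM4, MYH9 and VIM. Of the 6 called lower, 3 were called in all 14: TMSB10, TPM1 and TPM3.

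**Figure D3:**
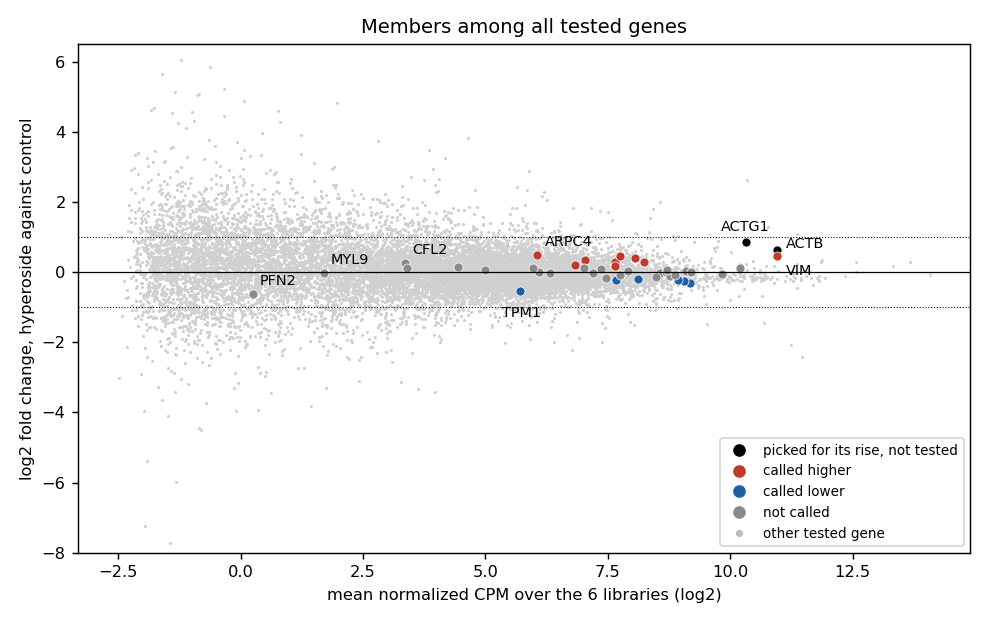
Log2 difference of hyperoside against control (y axis) against mean CPM over the 6 libraries (x axis, log2) for the 15095 tested genes in grey and the 42 members in colour, with dotted lines at a fold change of 2. Members sit toward the abundant end and inside the dotted lines.

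Per length, the thymosins were the most abundant members. TMSB4X had 1473 FPKM in control and 1463 FPKM in hyperoside, and TMSB10 had 1369 and 1132 FPKM. ACTB followed with 843 and 1350 FPKM, so that it passed TMSB10 in the hyperoside group, and VIM with 766 and 1077 FPKM. MYL6 had 633 and 606 FPKM, ACTG1 436 and 824 FPKM, and CFL1 325 and 337 FPKM.

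At the other end PFN2 had 0.694 and 0.462 FPKM, and MYL9, CFL2 and MRTFB stayed under 3 FPKM. The 42 members together took 1.46% ± 0.0148 of gene counts in control and 1.73% ± 0.0236 in hyperoside (SD, n = 3), and the 40 partners 1.22% ± 0.0136 and 1.32% ± 0.0170. The control and hyperoside shares did not overlap for the actins or for the partners. These shares are of unscaled library totals. Every hyperoside library had a higher TMM factor than every control library, which makes its shares higher relative to TMM-scaled levels. The partner share also includes VIM, the most abundant partner by CPM, with means of 1680 CPM in control and 2286 CPM in hyperoside. The median log2 difference of the partners was 0.02, so the share does not show that the partners rose together. The partner share without VIM was not tested.

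Relative to the FPKM of ACTB and ACTG1 summed, the monomer-binding genes were lower in hyperoside libraries. The thymosins together were 2.22 ± 0.0653 times the actins in control and 1.20 ± 0.0919 times in hyperoside (SD, n = 3), which is 53.8% of the control ratio. PFN1 was at 0.200 ± 0.0168 and 0.110 ± 0.00707, and CFL1 at 0.254 ± 0.0219 and 0.155 ± 0.00352. The summed 8 Arp2/3 genes were at 0.545 ± 0.0164 and 0.338 ± 0.0151 times the actins, and the tropomyosins at 0.0877 ± 0.00248 and 0.0559 ± 0.00287. The denominator was chosen for its rise, so a lower ratio is what any unchanged numerator gives.

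The make-up of some families also differed between the groups, given here without a test. Of the FPKM of both actins, ACTG1 held 34.1% ± 1.02 in control and 37.9% ± 1.44 in hyperoside (SD, n = 3). Among tropomyosins TPM4 held 42.1% ± 2.12 and 53.6% ± 0.983, and TPM3 45.3% ± 2.14 and 36.6% ± 1.22, so the mean of TPM4 was below that of TPM3 in control and above it in hyperoside. TPM1 held 8.62% ± 0.257 and 5.64% ± 0.0944, and TPM2 4.01% ± 0.569 and 4.13% ± 0.485.

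MYH9 held 67.4% ± 0.462 of the heavy chains in control and 71.8% ± 0.686 in hyperoside, and TMSB4X 51.8% ± 0.522 and 56.3% ± 0.763 of the thymosins. ARPC1B held 67.4% ± 1.1 and 64.1% ± 1.06 of the ARPC1 pair. For these families no control library overlapped a hyperoside library except in TPM2. ACTN4 held 87.0% and 86.5% of the alpha-actinins, also without overlap. CFL1 held 99.4% and 99.3% of the cofilins, and PFN1 99.7% and 99.8% of the profilins, both with overlap.

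**Figure D4:**
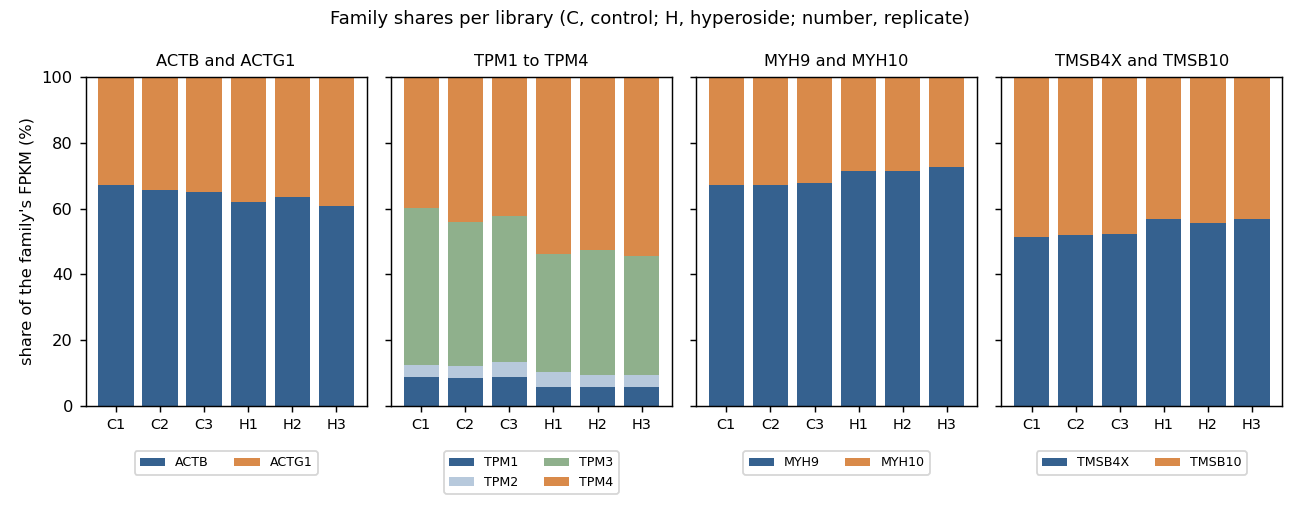
Share of the summed FPKM of a family (y axis, percent) held by each gene in control libraries C1 to C3 and hyperoside libraries H1 to H3 (x axis), for the actins, tropomyosins, myosin II heavy chains and thymosins. The TPM4 share is 42.1% on average in control and 53.6% in hyperoside.

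The transcription factors that couple actin to genes were not called at the level of their RNA. SRF had 64.5, 62.2 and 54.6 CPM in control and 61.0, 70.1 and 66.2 CPM in hyperoside, with overlap (log2 difference 0.12, adjusted p = 0.273 in edgeR). MRTFA had 20.8, 19.5 and 21.1 CPM and 23.3, 22.1 and 23.1 CPM, without overlap (log2 difference 0.16, 95% interval -0.05 to 0.36, adjusted p = 0.202). MRTFB had 31.0 ± 4.18 and 32.4 ± 0.871 CPM (SD, n = 3, log2 difference 0.06, adjusted p = 0.645). RNA levels do not show where these proteins are in the cell.

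A CArG box without mismatch, on either strand, was found for 6 of the 38 members with a promoter window (15.8%), against 438 of 27305 genes with one (1.60%). ACTB, ARPC1B, MYL9 and PFN2 had no window in the table. The members were listed as actin and SRF-responsive genes, so the share is a description of that choice. The 6 genes were ACTG1, TPM4, FLNA, SRF, ACTN1 and CNN2, whose sequences stand above.

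The members that hold the box differed in their calls. The box lies 94 bases before the start in ACTG1 and in FLNA, 173 in TPM4, 171 in ACTN1, 89 in CNN2, and 30 and 10 in SRF. ACTG1 was picked for its rise, TPM4 was called higher at 0.41, and FLNA, SRF, ACTN1 and CNN2 were not called, at 0.12, 0.12, 0.00 and -0.09. A match is a stretch of letters and no measured binding, and allowing 1 mismatch in an end of the box raised the count to 13 of 38 (34.2%), against 15.6% of all genes.

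**Figure D5:**
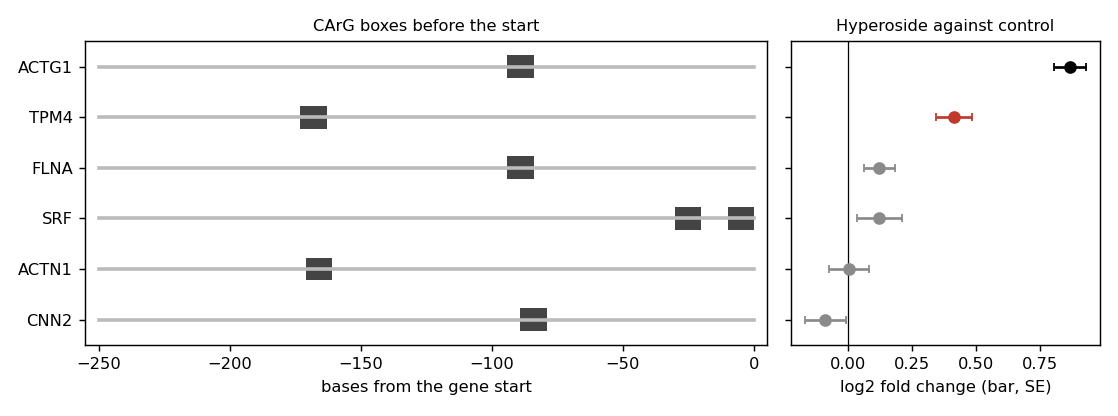
Position of CArG boxes before a RefSeq start of 6 members (left, bases from that start) beside the log2 difference of the same genes with its standard error (right). The boxes lie between 10 and 173 bases before that start, and the differences run from -0.09 in CNN2 to 0.87 in ACTG1.

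Other genes of the pathway were taken from lists set out by function. Of 26 tested cofactors and targets of SRF, 1 of them the member TPM1, 7 were higher and 9 lower, with a median log2 difference of -0.09. EGR1, an immediate-early transcription factor, had 67.2, 38.0 and 45.0 CPM in control and 121, 174 and 106 CPM in hyperoside (log2 difference 1.42, SE 0.17, adjusted p = 3.65e-06 in edgeR). CCN1, a matrix-associated signalling protein, had 2.16 and 5.03 CPM (log2 difference 1.22), and FOS, another immediate-early gene, 5.14 and 8.67 CPM (0.75). CNN1, calponin 1, had 6.79 and 11.8 CPM (0.80).

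On the lower side of that list were TPM1, SCAI, a repressor of MRTF (log2 difference -0.62), ELK4, an ETS cofactor of SRF (-0.53), and FHL1 (-3.16), a LIM protein gene. FHL1 had 2.08, 1.68 and 1.46 CPM in control and 0.0545, 0.463 and 0.0554 CPM in hyperoside. It was called in all 14 settings, but its size was unsettled, at -4.90 without hyperoside replicate 2 and -0.45 on log2(FPKM + 1). In both fits on FPKM the count lower was 5, and SCAI and ELK4 lost their calls there, with adjusted p up to 0.0553 and 0.0680.

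Of 24 tested relatives of the members, 6 were higher and 6 lower, with a median of 0.01. SCIN, the gelsolin relative adseverin, had 68.5 ± 11.8 and 175 ± 9.29 CPM (SD, n = 3, log2 difference 1.35, adjusted p = 1.15e-08 in edgeR). ENAH, a relative of VASP, had 14.6 ± 1.1 and 2.45 ± 0.676 CPM (log2 difference -2.58, adjusted p = 6.19e-09). ACTR3C (0.91), CNN1 (0.80) and CAPZA2 (0.25) were also higher, and FLNC (-0.48), ARPC5L (-0.46) and MYL12B (-0.39) lower. Without hyperoside replicate 3 the count higher was 3, and CAPZA2 was not called (adjusted p = 0.0713).

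Of 37 tested nucleators and nucleation-promoting factors, 12 were higher and 8 lower, with a median of 0.11. WASHC2C (1.06) and WASHC5 (0.80), subunits of the WASH complex that starts branches on endosomes, were higher, as were the formin FMNL3 (0.91) and NCKAP1L (0.52), a WAVE complex subunit of blood cells. ABI2 (-0.92), also of the WAVE complex, JMY (-0.79), COBL (-1.25) and the formin FHOD1 (-0.49) were lower.

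Of 44 tested further filament-binding genes, 12 were higher and 15 lower, with a median of -0.09. CORO1C (0.55), EZR (0.46), DBNL (0.51) and SPTBN1 (0.34) were higher, and AIF1L (-2.21), MARCKS (-2.05), COTL1 (-0.71) and TES (-0.55) lower. Over all tested genes 22.1% were higher and 23.2% lower. The shares higher and lower were 26.9% and 34.6% for the cofactors and targets of SRF, and 25% and 25% for the relatives. They were 32.4% and 21.6% for the nucleators and nucleation-promoting factors, and 27.3% and 34.1% for the further filament-binding genes.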

How the data were processed

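RNA was extracted with Trizol from 3 control and 3 hyperoside samples of K562 cells and sequenced on an Illumina HiSeq instrument. The submitters' processing notes name fastp, HISAT2, HTSeq and hg38, without versions. Strand use and the annotation are not given in the sources used here. The authors deposited raw counts per gene and FPKM values, which they scaled to gene length and library total; one gene length per gene accounted for the FPKM of all 6 libraries in 100% of 11532 genes with at least 50 counts (tolerance 0.001).

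Counts were compared in R 4.3.3 with edgeR 4.0.16 (filterByExpr with a minimum count of 10 and total of 15, TMM, quasi-likelihood test), group being the only term. Benjamini-Hochberg adjustment covered 15095 genes, and a gene was called at an adjusted p under 0.05. A second rule added a fold change above 2, as in the study, which names DESeq. The standard error is the size of the log2 difference over the square root of F, and intervals are 95%. The steps were tested on simulated data. DESeq2 1.42.0 and limma 3.58.1 on log2(FPKM + 1) and log2(FPKM + 0.1) were alternatives. Replicates of a group differed by more than counting error (chi-square per degree of freedom 6.34 to 23.1), so none was a copy. The members and gene lists were chosen with earlier results of these data known. All members may be named. From each other list the text names at most 4 genes per direction, those called with the smallest adjusted p, and any of the reference genes. Some genes and 1 gene list are not reported here. Positions and transcripts are from GENCODE 29 (GRCh38), and promoters from RefSeq (GRCh38.p14). Sequence identity is between coding sequences. CArG boxes were sought on both strands. Python 3.11.15, pandas 2.3.3, numpy 2.4.6, Biopython 1.88 and matplotlib 3.10.9 were used.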

Additional observations from a re-analysis of the deposited data

How the results depend on the processing

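Precision was limited by 3 libraries per group and, for PFN2, MYL9, CFL2 and TPM2, by low counts. The median log2 difference of the partners was 0.020 and stayed above 0, at 0.0682 with library totals, 0.0605 with upper quartile scaling, 0.0706 on log2(FPKM + 1) and 0.0711 on log2(FPKM + 0.1), and 0.0164 to 0.0490 with single libraries left out; the median of all genes was at most 0.0526 under any scaling. Partners called higher numbered 7 to 10 and called lower 3 to 6 with single libraries left out, the 3 being without hyperoside replicate 1. On log2(FPKM + 1), 208 genes were higher and 136 lower with a fold change above 2, against 970 and 567, where the added 1 shrinks the fold of low genes. Promoters with a CArG box numbered 13 with a mismatch allowed in an end and 6 without. No called result changed direction in any of the 14 settings, and 23 of the 25 partners that were not called stayed so in all of them, the exceptions being GSN and FLNA. Without control replicate 1, 1 actin-like copy in place of 0 was lower. The replicate numbers did not pair the libraries (correlations of same-numbered deviations -0.195, -0.0374 and -0.0239). With a replicate block, 7 partners were higher and 5 lower, against 9 and 6. The comparison of protein sequences was not run, and coding sequences were compared instead.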

Other observations

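ACTB is often used to normalize qPCR and blots, so its level was set beside those of common reference genes. The study's methods list an antibody to β-actin for its blots. The values here are of RNA and do not measure that protein. Of 16 tested reference genes, 6 were lower after hyperoside in edgeR (37.5%), against 23.2% of all tested genes. Among genes with a mean of at least 100 CPM, 34.4% were lower. A further 2 reference genes were higher (12.5%), against 22.1% of all tested genes. Among the lower ones were PGK1 (log2 difference -0.50), SDHA (-0.42), TBP (-0.42), RPL13A (-0.25) and GAPDH (-0.22). ALAS1 (0.26) was higher, but was not called without control replicate 3 or hyperoside replicate 3. RPL13A lost its call in both fits on FPKM, with adjusted p up to 0.0942. B2M (-0.07), EEF1A1 (-0.07) and TUBB (0.02) were not called. GAPDH, which the study's methods name for qPCR normalization, had 3015 ± 261 CPM in control and 2581 ± 99.6 CPM in hyperoside (SD, n = 3, adjusted p = 0.0140 in edgeR). GAPDH was called in 11 of 14 settings and lost its call in both fits on FPKM and without hyperoside replicate 1, with adjusted p up to 0.0908. ACTB was 0.517 ± 0.0248 times GAPDH in control and 0.932 ± 0.0353 times in hyperoside by CPM, and ACTG1 0.302 ± 0.0274 and 0.640 ± 0.0152 times. ACTB was picked for its rise, so these ratios are descriptions.

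The study's primer list holds a pair under the name NADPH, forward TCATCACCATTGGCAATGAGCG and reverse CACTGTGTTGGCGTACAGGT. Among GENCODE 29 transcripts this pair matched in full only ACTB, in 7 of its 19 transcripts, with a product of 155 bases. ACTG1 matched the forward primer in full and had 1 mismatch to the reverse primer, and POTEE and POTEF had 2 and 1. The 3 tested actin-like copies were not called in either direction.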
